A study of Arabidopsis thaliana with 6 samples.

Results

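Among 22746 gene probe sets measured in rosette leaves of Arabidopsis thaliana, 18 separated the pho3 line from wild type on every array with a margin, 8 of them higher and 10 lower in pho3. A probe set is the group of short probes on an Affymetrix ATH1 array that reads 1 transcript or a few similar ones. The 18 were chosen by 3 limits on the signals themselves. The lowest array of the brighter line had to read at least 1.3 times the highest array of the dimmer line, a ratio called the gap below. The lowest array of the brighter line had to read at least 50, a level called the floor. The mean of pho3 replicates 1 and 2 and the mean of wild-type replicates 2 and 3 had to lie within 2.5-fold of each other, a ratio called the end-array fold. Because all 6 arrays chose the members, every difference between the lines given for them is a description and carries no test.

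The pho3 plants came from the Feldmann collection of T-DNA insertion lines in the ws-2 background, and the wild type was ws-2 itself, with 3 arrays for each. After stratification for 3 days at 4 °C, plants of both lines spent 10 days on Murashige and Skoog medium containing 1% sucrose before transfer to compost, in a cabinet kept at 23 °C under a day of 16 h and a night of 8 h, until growth stage 6.0. The labels do not say whether replicates were separate plants or pools, so the spread given here is that between these arrays and may be technical. The number of arrays limits the precision. Of the fixed marker genes, the 5 tested members of the light-reaction list had mean signals from 369 to 3121, while the root list and the flower and pollen list each had 1 named gene, AT4G11290 and AT5G45880, whose signals ranged from 8.91 to 16.7 and from 2.45 to 12.8.

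As background, pho3 is known as a mutant of SUC2, the proton-coupled sucrose transporter with which companion cells load sugar into the phloem. Leaves that cannot export sucrose accumulate soluble sugars, starch and anthocyanin, and sugar signals are known to raise genes of starch and pigment synthesis and to lower genes of photosynthesis. The probe set of SUC2 has no name in the annotation used here, so the lesion was not checked on these arrays.

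Both groups held an array that lay between the lines, and this bears on every value below. Each array was placed on a scale that runs, on log2 signals, from 0 at the mean of wild-type replicates 2 and 3 to 1 at the mean of pho3 replicates 1 and 2. Over 3187 other tested probe sets with an end-array fold in the members' range, from 1.47 to 2.37, and the brighter end arrays at 50 or more, the array labelled wild-type replicate 1 had a median position of 0.66. The array labelled pho3 replicate 3 had a median position of 0.40. By these medians the array labelled wild type lay nearer to the end pho3 arrays than the array labelled pho3 did. Whether these arrays were exchanged or their RNA mixed was not tested, and if so the members' values would not compare the lines as labelled. Directions below follow the labels as given. Among RNA quality controls, the ratio of the 3-prime to the 5-prime actin signal was 4.75, 5.24 and 3.46 on pho3 replicates 1, 2 and 3 and 4.23, 2.18 and 2.26 on wild-type replicates 1, 2 and 3. For actin the groups overlapped, since wild-type replicate 1 lay above pho3 replicate 3. The actin ratio was high, intermediate or low on the same arrays as the positions just given. The other controls did not follow that order. The GAPDH ratio was lowest on both intermediate arrays, at 1.16 for pho3 replicate 3 and 1.23 for wild-type replicate 1. On the end arrays it lay between 1.27 (wild-type replicate 2) and 1.47 (pho3 replicate 1). The ubiquitin ratio ran only from 1.63 on wild-type replicate 1 to 1.80 on wild-type replicate 3. An exact permutation test (two-sided) gave p = 0.2 for actin, 0.6 for GAPDH and 0.8 for ubiquitin. With 3 against 3 arrays it cannot go below 0.1, so it cannot show a difference at 0.05. The part of these ratios in the members' signals was not tested.

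Far more probe sets separated the groups by any margin than by the 1.3-fold gap with the floor. Of 13983 probe sets tested, 742 read higher on every pho3 array than on every wild-type array, which is 5.31% of those tested, and 812 read lower, which is 5.81%. With a gap of at least 1.3 and the floor of 50, 9 remained higher (0.0644%) and 12 remained lower (0.0858%). The end-array limit removed 3 of these and left the 8 higher (0.0572%) and 10 lower (0.0715%). The widest gap among the members was 1.403, and no probe set that met the floor reached a gap of 1.5. The rule used this same contrast, so nothing is read from these shares. Over the whole table, limma's test on all 6 arrays called 0 probe sets higher (0%) and 0 lower at an adjusted p under 0.05, with a lowest adjusted p of 0.375, and at an unadjusted p under 0.05 it had 807 higher and 678 lower.

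**Figure D1:**
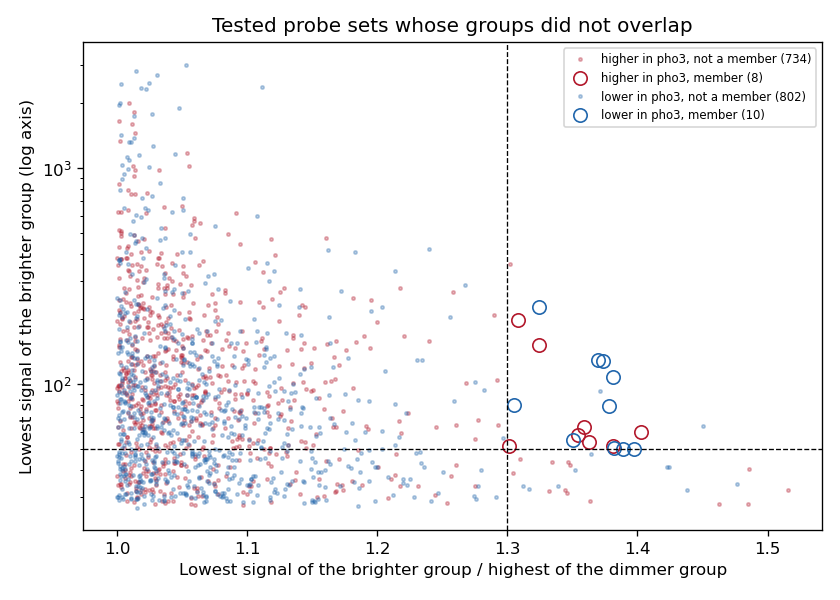
Each point is 1 tested probe set whose pho3 and wild-type signals did not overlap, with the gap (a ratio) on the x axis and the lowest signal of the brighter group on a log y axis. Red marks probe sets higher and blue those lower in pho3, open circles mark the 18 members, and dashed lines mark the limits of 1.3 and 50. Most points lie at gaps under 1.1, and the members lie between 1.301 and 1.403, several of them on the line at 50.

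The number of members rested on which arrays were used. Leaving out wild-type replicate 1 gave 406 higher and 339 lower, leaving out pho3 replicate 3 gave 214 and 300, and each included all 18. Leaving out wild-type replicate 2 gave 16 higher and 15 lower. Fewer arrays make the rule easier to meet, so some increase follows from leaving any array out. Scaling the arrays to a common median kept all 8 higher members and 5 of the 10 lower, for 10 higher and 5 lower in all, and quantile normalization gave 10 higher and 7 lower.

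The members were dimmer than most probe sets tested. Their mean signal over the 6 arrays ranged from 41.4 to 225, with a median of 52.5 against 96.6 for all tested, and 8 of the 18 had a floor signal under 60. For 2 of them a signal fell below its array's 40th percentile, which lay between 26.2 and 28.4. Within groups the members' log2 signals had a median SD of 0.16, against 0.24 for all tested, and a small spread is something the rule favours. Log2 differences, pho3 minus wild type, ranged from 0.56 to 0.89 for the higher members, with a median of 0.71, and from -0.99 to -0.56 for the lower, with a median of -0.75. The median over all tested was 0.00. By name, 8 members had 1 gene in the annotation and 10 had none, and all 8 matched a RefSeq gene by gene number.

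**Figure D2:**
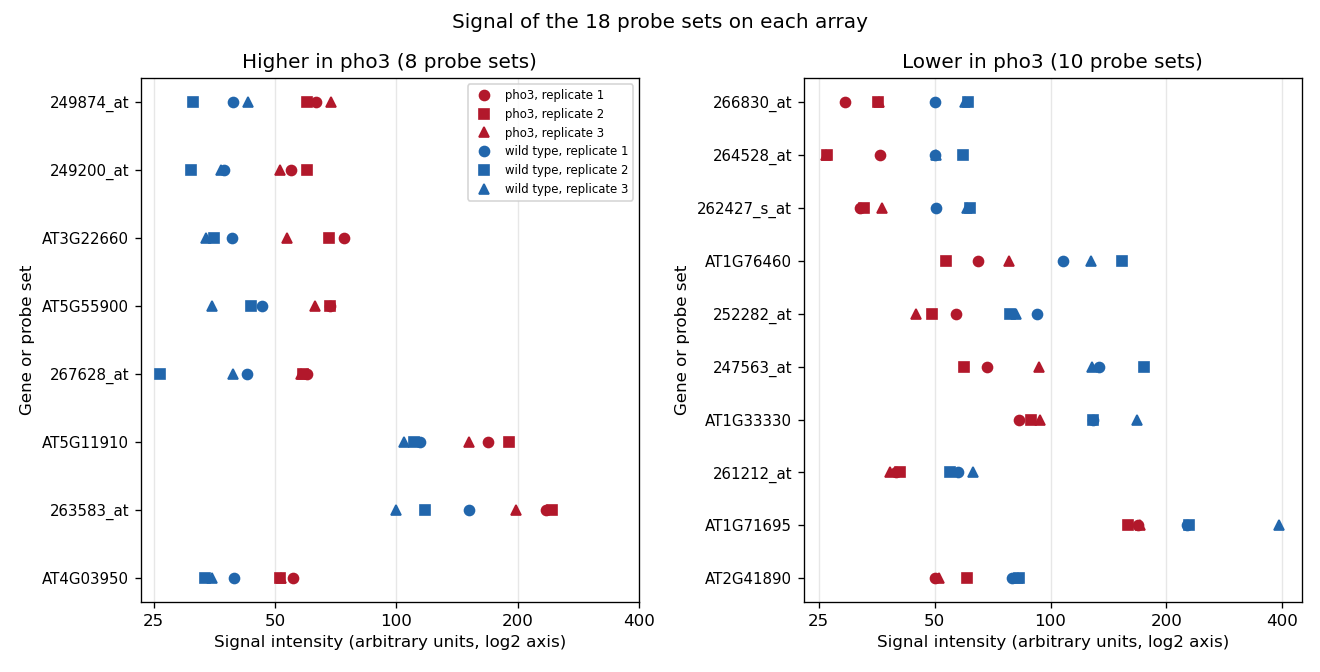
Signals of the 18 members on each of the 6 arrays, on log2 x axes, with the 8 probe sets higher in pho3 on the left and the 10 lower on the right. Red marks pho3, blue marks wild type, and circles, squares and triangles mark replicates 1, 2 and 3. In every row the 3 red symbols lie on one side of the 3 blue ones, and most rows lie under a signal of 100.

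Of the named members, 3 belong to families that handle RNA and translation, and they differed in direction. AT3G22660, a homologue of the nucleolar EBP2 proteins known from yeast for ribosomal RNA processing, read 74.0, 67.9 and 53.4 on replicates 1, 2 and 3 of pho3 and 39.2, 35.3 and 33.7 on those of the wild type. Its pho3 mean was 65.1 ± 10.6 and its wild-type mean 36.1 ± 2.82 (SD, n = 3), a log2 difference of 0.84 (SE 0.17). Its pho3 replicate 3 was the nearest pho3 array to wild type, and the groups stayed 1.36-fold apart.

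AT1G76460, whose protein carries an RNA recognition motif, was the named member with the largest difference. Its signals were 65.0, 53.7 and 78.2 in pho3 against 108, 153 and 128 in wild type, in replicate order as for all values below. The means were 65.6 ± 12.3 and 130 ± 22.5 (SD, n = 3), a log2 difference of -0.98 (SE 0.20). The 2 arrays between the lines came closest to each other, with wild-type replicate 1 the lowest of its group and pho3 replicate 3 the highest of its own. Its end-array fold of 2.36 was the second nearest to the limit of 2.5.

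AT1G33330, of the class I peptide chain release factor family, whose members end protein synthesis at stop codons in bacteria and organelles, read 82.6, 88.8 and 93.9 in pho3 against 129, 129 and 167 in wild type. The groups averaged 88.4 ± 5.68 and 142 ± 22.4 (SD, n = 3), a log2 difference of -0.67 (SE 0.16). Wild-type replicate 3 was higher than the other wild-type arrays, which read alike.

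Among the lower members were a secreted enzyme of the peroxidase type and a receptor-like protein. AT1G71695, a class III peroxidase, belongs to a family that acts in the cell wall, where it oxidises phenolic compounds and can stiffen the wall or form lignin. It read 169, 159 and 171 in pho3 against 227, 229 and 393 in wild type, with means of 166 ± 6.41 and 283 ± 95.1 (SD, n = 3). The log2 difference was -0.72 (SE 0.24), and -0.45 without wild-type replicate 3, its brightest array. The pho3 arrays lay close together, and the gap was set by wild-type replicate 1.

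AT2G41890, which encodes a receptor-like protein with a mannose-binding lectin domain, read 50.3, 60.8 and 51.5 in pho3 against 79.4, 82.7 and 82.3 in wild type. Its groups averaged 54.2 ± 5.77 and 81.4 ± 1.81 (SD, n = 3), a log2 difference of -0.59 (SE 0.13). The 3 wild-type arrays nearly coincided, wild-type replicate 1 among them, and pho3 replicate 3 read close to pho3 replicate 1. Its gap, 1.305, was the smallest of the lower members.

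The other 3 named members were higher in pho3. AT4G03950, of the plastid sugar phosphate translocator family, whose members exchange phosphorylated sugars for phosphate across the inner envelope, read 55.5, 51.4 and 51.7 in pho3 against 39.5, 33.5 and 35.0 in wild type. The log2 difference was 0.56 (SE 0.15), the smallest of the higher members, and its gap of 1.301 was the smallest of all 18. Its pho3 signals lay just above the floor of 50.

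AT5G55900, for which no role is given here, read 68.4, 68.5 and 62.9 in pho3 against 46.3, 43.5 and 34.9 in wild type, a log2 difference of 0.69 (SE 0.16). Its pho3 arrays differed little among themselves, and wild-type replicate 3 was the lowest of the 6. AT5G11910, of the alpha/beta hydrolase enzyme superfamily, was the brightest of the named higher members. It read 168, 190 and 151 in pho3 against 114, 110 and 105 in wild type, with means of 170 ± 19.2 and 110 ± 4.94 (SD, n = 3) and a log2 difference of 0.62 (SE 0.14). The 3 wild-type arrays of AT5G11910 lay together, with wild-type replicate 1 at a position of 0.12 on the scale between the end arrays.

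Signals of the 10 unnamed members ran from 26.0 to 243, and those of the 8 named members from 33.5 to 393. The widest gap of all, 1.403, belonged to 249874_at, which read 63.2, 60.1 and 68.9 in pho3 against 39.4, 31.3 and 42.8 in wild type. It was the single higher member in which wild-type replicate 1 was not the brightest wild-type array. The brightest of the higher members was 263583_at, with 235, 243 and 198 in pho3 against 152, 118 and 99.7 in wild type, and it had the largest log2 difference among them, 0.89 (SE 0.19). Wild-type replicate 1 was its nearest wild-type array to pho3 and pho3 replicate 3 its nearest pho3 array to wild type. The remaining higher ones were 249200_at, at 51.6 to 60.0 in pho3 and 30.9 to 37.3 in wild type, and 267628_at, at 57.8 to 60.0 and 26.0 to 42.7.

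Among the lower unnamed members, 247563_at had the largest difference of all 18, a log2 value of -0.99 (SE 0.21). It read 68.2, 59.6 and 93.2 in pho3 against 133, 175 and 128 in wild type, and its end-array fold of 2.37 lay nearest to the limit. In contrast, 252282_at read 57.0, 49.2 and 44.8 in pho3 against 92.4, 78.6 and 81.5 in wild type. For 252282_at wild-type replicate 1 was the brightest wild-type array and pho3 replicate 3 the dimmest pho3 array, so both intermediate arrays lay beyond the end arrays of their own line.

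The other 4 lower unnamed members were dim. The probe sets 266830_at, 264528_at and 262427_s_at had their lowest wild-type signals at 50.1, 50.1 and 50.4, just inside the floor, and their highest pho3 signals at 35.9, 36.0 and 36.5. In 262427_s_at the suffix marks probes shared by several transcripts, so its reading may come from more than 1 gene. The last, 261212_at, read 38.3 to 40.6 in pho3 and 54.9 to 63.1 in wild type, with the smallest end-array fold of all, 1.47.

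The rule put both intermediate arrays on the side of their own label, to a different extent in each member. Over the 18 members wild-type replicate 1 had a median position of 0.22, ranging from -0.35 to 0.47, and pho3 replicate 3 a median of 0.84, ranging from 0.55 to 1.404. Over the 3187 other probe sets of like end-array fold the medians were 0.66 and 0.40, in the reverse order. Wild-type replicate 1 was the wild-type array nearest to pho3 in 13 of 18 members, which is 72.2%, and in 69.1% of all tested. Pho3 replicate 3 was the pho3 array nearest to wild type in 12 of 18, which is 66.7%, and in 69.0% of all tested. These shares are close to those of all tested, and far from the 94.5% and 92.6% among the other probe sets of like end-array fold, a contrast that the rule itself favours. Without both intermediate arrays, a setting chosen after seeing the data, the named higher members differed by 0.64 to 1.04 on the log2 scale and the named lower ones by -1.24 to -0.58. In 5 members, AT2G41890 and the unnamed 249874_at, 264528_at, 252282_at and 261212_at, pho3 replicate 3 lay beyond the mean of pho3 replicates 1 and 2.

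**Figure D3:**
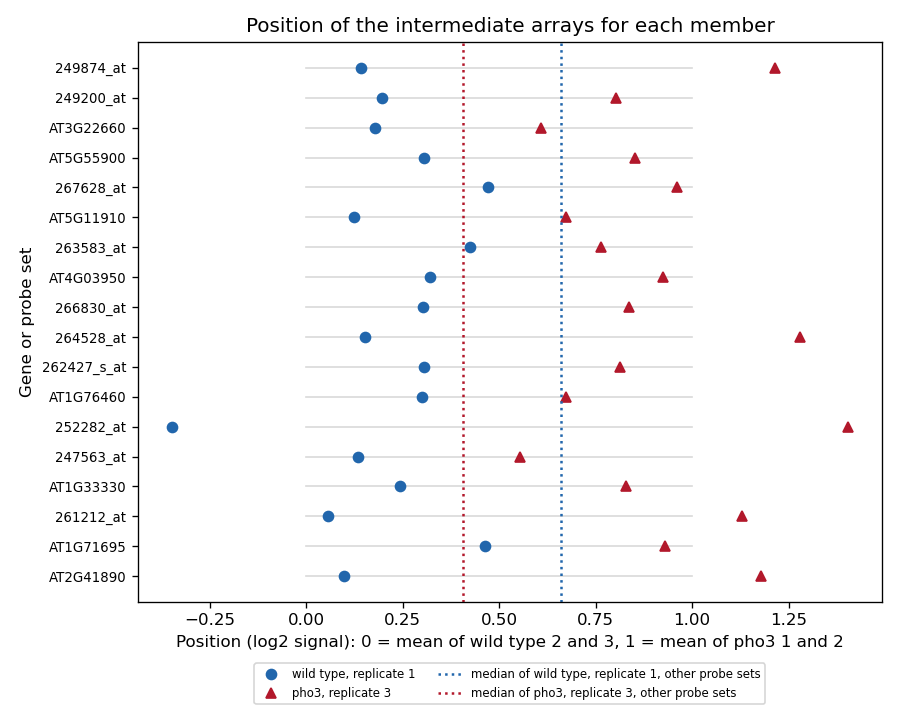
Position of wild-type replicate 1 (blue circles) and pho3 replicate 3 (red triangles) for each of the 18 members, on a log2 scale where 0 is the mean of wild-type replicates 2 and 3 and 1 the mean of pho3 replicates 1 and 2. Dotted lines give the medians over the 3187 other probe sets of like end-array fold, 0.66 for wild-type replicate 1 and 0.40 for pho3 replicate 3. In each member the circle lies left of the triangle, while the dotted lines stand in the opposite order.

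No named and tested gene of the sugar, starch, pigment, photosynthesis, defence, senescence or cell type lists was a member. The 16 lists held 191 loci, of which only 39 were named and tested, and 0 of these 39 were among the 18 members. Over all tested the share of members was 0.0572% higher and 0.0715% lower, so nothing is read from this 0. The end-array limit alone would have barred some list genes, such as the pigment gene DFR at a fold of 30.6 and the starch gene APL4 at 29.2. It decided the exclusion of none, since 0 list genes reached the gap of 1.3. For all 39 list genes the groups overlapped, with the widest ratio of lowest brighter to highest dimmer signal at 0.97, while 5.31% and 5.81% of all tested probe sets had groups that did not overlap. The 6 tested anthocyanin and flavonoid genes had a median log2 difference of 2.23 and the 3 starch synthesis genes 1.70, both larger than any member's. The 4 tested Calvin cycle genes had a median of -0.38, smaller in size than the difference of any lower member. The end-array limit holds down the members' differences and the gap sets a lowest size for them. The rule itself therefore favours both contrasts, and nothing about the members is read from them. The 3 phloem markers and 2 guard cell markers that were tested also overlapped, with median log2 differences of -0.41 and -0.53. Fewer cells of a type and less RNA per cell cannot be told apart in whole leaves.

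The 8 named members lay on all 5 nuclear chromosomes, 3 of them on chromosome 1 (37.5%, against 25.9% of named tested probe sets), 2 on chromosome 5 and 1 on each of the others. None had another named member within 5 protein-coding genes, and the 10 unnamed members could not be placed. The neighbours were not used by the rule. They were read on the same 6 arrays, including both intermediate ones, so they are not an independent reading of the lines. Of 9 tested neighbours of higher members, 6 had a higher mean in pho3, and of 12 tested neighbours of lower members, 7 had a lower mean, while 49.8% of all tested had a higher mean. The groups did not overlap for 3 of these 21, against 11.1% of all tested, so the count is near the general share. All of these 3 were neighbours of AT1G71695, a lower member. They differed in direction, with log2 differences of -0.31 for AT1G71691, -0.37 for AT1G71710 and 0.21 for AT1G71730.

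The 4 genes tested directly next to a named member all had their means shifted the same way as that member, each with groups that overlapped. AT5G11900 and cwINV6, described below, flank the same member. Over all tested, 49.8% had a higher mean in pho3, so a few genes can share a direction without any local effect. Nothing is read from this count. AT1G76450, next to AT1G76460, read 238, 258 and 430 in pho3 against 323, 532 and 509 in wild type, a log2 difference of -0.58 (SE 0.29). AT1G33340, next to AT1G33330, read 49.6, 53.0 and 71.5 in pho3 against 56.5, 106 and 123 in wild type, a log2 difference of -0.66 (SE 0.31). In both neighbours wild-type replicate 1 read below pho3 replicate 3, which the rule does not allow in a member.

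The neighbourhood of AT5G11910 showed the same contrast, in which the rule fixed the order of the arrays for the member. The next gene is cwINV6, named for the cell wall invertases that split sucrose outside the cell. It read 306, 411 and 139 in pho3 against 260, 50.9 and 34.0 in wild type, a log2 difference of 1.76 (SE 0.78), and AT5G11930 beyond it read 162, 222 and 117 in pho3 against 139, 65.9 and 49.5 in wild type, a log2 difference of 1.07 (SE 0.41). For both, wild-type replicate 1 read above pho3 replicate 3. For AT5G11910 the same array read 114, below every pho3 array and beside wild-type replicates 2 and 3. On the other side AT5G11900 differed by 0.11 on the log2 scale, less than its SE of 0.16.

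**Figure D4:**
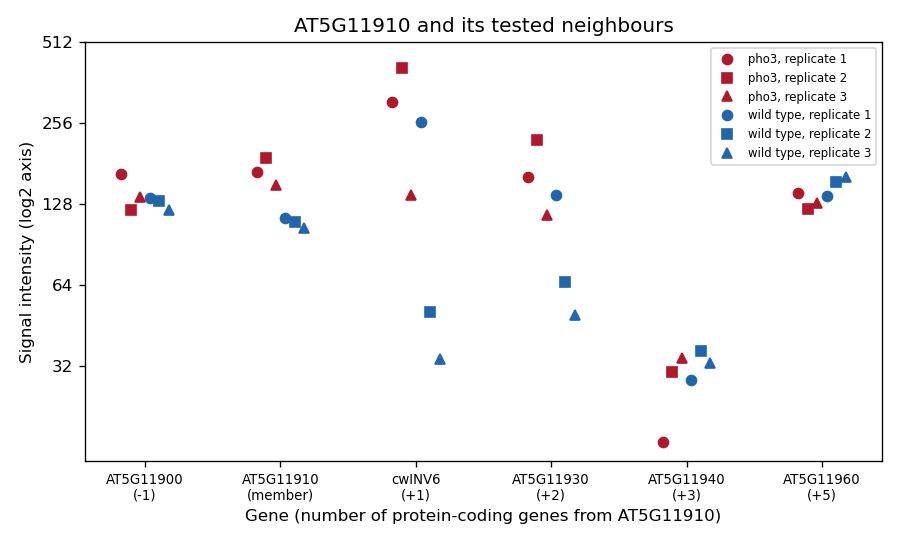
Signals on the 6 arrays, on a log2 y axis, of AT5G11910 and its tested neighbours in gene order along the chromosome. Brackets give each neighbour's signed place, counted in protein-coding genes from AT5G11910. Red marks pho3, blue marks wild type, and circles, squares and triangles mark replicates 1, 2 and 3. In AT5G11910 the blue symbols lie together below the red ones, a separation that the rule requires of a member. In cwINV6 and AT5G11930 the blue circle lies among the red symbols.

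Values just inside and just outside the gap and floor limits lay close together. At the gap limit, AT4G03950, AT2G41890 and 263583_at stood inside at 1.301, 1.305 and 1.308, and 247185_at, AT3G10630 and AT3G01740 stood outside at 1.297, 1.293 and 1.290. At the floor, 264528_at, 266830_at and 262427_s_at stood inside at 50.1, 50.1 and 50.4, and AT1G78480, AT1G01830 and SWI3A, a subunit of a chromatin remodelling complex, stood outside at 47.4, 43.3 and 43.2. The step was wider at the end-array limit, where 247563_at, AT1G76460 and 263583_at stood inside at 2.37, 2.36 and 2.20. Outside it stood AT5G24210 at 3.09, AT3G62860 at 3.27 and AT1G64380 at 3.92. AT5G24210 read 434, 427 and 358 in pho3 against 275, 143 and 136 in wild type, so that wild-type replicate 1 lay between the lines there.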

How the data were processed

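Linear signal intensity values, as deposited, were available for each probe set of 6 ATH1 arrays. The authors made these intensity values with MAS5, per the submitters' processing notes, which give no version; each array's 2% trimmed mean equalled 100.0. Groups and replicate numbers came from the array titles. The 64 control probe sets were left out, and of the other 22746 13983 entered the tests, those reaching the 40th percentile of an array for 3 arrays or more; all 18 members were among them, as the floor of 50 ensures. Log2 signals without a pseudocount were fitted with limma 3.58.1 in R 4.3.3 (eBayes with trend, two-sided, Benjamini-Hochberg over all tested). Log2 differences and SE come from that fit, means ± SD from linear signals, and the end-array fold from arithmetic means. Member counts and figures used python 3.11.15 with pandas 2.3.3, numpy 2.4.6 and matplotlib 3.10.9, and exact permutation tests used scipy 1.17.1. Scripts were tested on simulated data.

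Gene names came from the array's annotation and RefSeq TAIR10.1: 13513 probe sets had 1 gene, 503 several and 8730 were unlisted. Members with several genes or none stay unnamed. No coordinates are printed, since no build is stated for the annotation. The tables hold no gene descriptions, so functional classes by keyword were not computed; families named in the text are general knowledge of these loci. The members, lists and limits were chosen with earlier results of these data known. All members with 1 gene are named, with the 3 probe sets nearest each limit on either side; unnamed members and the neighbours shown in full were chosen after their values were seen. Alternatives covered scaling, filters, priors, array weights, each limit, the replicate block and each array left out.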

Additional observations from a re-analysis of the deposited data

How the results depend on the processing

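Member counts moved with the limits: a gap of 1.1 gave 104 higher and 118 lower and a gap of 1.5 gave 0 and 0; a floor of 30 gave 16 and 18 and a floor of 100 gave 2 and 4. Median scaling left 5 lower. Over the arrays left out in turn, members ranged from 9 to 406 higher and from 13 to 339 lower. With wild-type replicate 1 and pho3 replicate 3 both left out, a setting chosen after seeing the data, they were 1533 and 1606. The other settings, quantile normalization, no end-array limit, a limit of 2-fold and geometric means, kept both counts within 1.5 times. The genes called by limma stayed at 0 in each direction except with array weights (2237 higher, 2026 lower), without wild-type replicate 1 and without both arrays (2547 and 2305); over arrays left out in turn they ranged from 0 to 644 and from 0 to 117. The cause of these changes was not tested, beyond the looser rule that fewer arrays or lower limits give. Same-numbered arrays did not deviate together in every pair (correlations of 0.39, -0.27 and 0.43), and the replicate block called 0 in each direction. Of 88 log2 differences of named members under the alternatives, 83 moved by less than 1 SD and 0 changed sign. Their ratios to the reported value ran from 0.63 to 1.26. The rule keeps the lines apart on every array, so leaving arrays out, a pseudocount or the replicate block could not change a sign. The replicate block also returns the same log2 differences by its design. Nothing about the members is therefore read from the absence of sign changes. The number of arrays limits the precision; signal over background was not assessed, as detection calls were not used.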
